A study of Mus musculus with 9 samples.

Results

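Skeletal muscle differentiation genes were described in messenger RNA from 4 mouse oviduct tumors and 5 normal oviducts. The group was given as a list of 40 gene symbols covering myogenic factors, myoblast fusion, contractile proteins, the muscle endplate and the sarcomere. Of these, 32 were found among the 19435 genes of the deposited table. They comprised 11 of 17 genes assigned here to embryonic or regenerating muscle and 21 of 23 assigned to mature muscle. Myod1, Myf6, Pax3, Pax7, Myh4, Myh8, Chrnd and Chrng were not analysed here.

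The tumors were primary oviduct tumors of the genotype Dicer1ko/D1693N, numbered tumors 1 to 4. Oviducts 1 to 3 were Dicer1+/D1693N and oviducts 4 and 5 were Dicer1+/+. The D1693N allele was therefore carried by the tumors and by oviducts 1 to 3. The labels list no treatment, and strain, age, the Cre line or other means of deletion, and whether each library came from a separate animal are not given in the sources used here. The p-values below measure only the spread between these libraries, which may in part be technical. DICER1 is the RNase III enzyme that cuts microRNA precursors, and D1693N lies in its RNase IIIb domain.

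Skeletal muscle forms when precursor cells switch on basic helix-loop-helix myogenic factors, leave the cell cycle and fuse into multinucleated fibers. Young fibers use embryonic myosin and the cardiac forms of actin and troponin T, and later replace them with fast or slow adult forms. The oviduct wall holds smooth muscle, which uses other myosin and actin genes. The comparison of tumors with oviducts asks which skeletal muscle genes were present in the tumors and which stage of the program they belong to.

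The libraries held 8732190 to 11267144 counted reads in tumors and 8504993 to 12526078 in oviducts. Levels are normalized counts, meaning reads divided by the library's size factor as recovered from the deposited log2 values. Each change is the tumor mean minus the oviduct mean on the deposited log2 scale, given ± SE. A gene was called when limma's moderated test gave a Benjamini-Hochberg adjusted p under 0.05 over 19435 genes with a change of at least 1. Dicer1 had 576 to 1379 normalized counts in tumors and 904 to 1237 in oviducts. These reads are not split by allele. The oviduct markers Ovgp1 and Foxj1 were at 111 to 11678 and 12.6 to 244 in tumors, against 78144 to 150619 and 4184 to 6649.9 in oviducts. The tissue markers Epcam and Pax8 overlapped between the groups and were not called. Epcam was at 1028 to 4357 in tumors and 2190.1 to 3025 in oviducts. Pax8 was at 413 to 1231 in tumors and 1114 to 1587 in oviducts. In such bulk samples, fewer cells of a type and less RNA per cell cannot be told apart.

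Of the 32 genes, 3 were higher in tumors: the myogenic factor Myog, the acetylcholine receptor subunit Chrna1 and the slow troponin I gene Tnni1. Another 2 were lower in tumors: Tnnt2, the cardiac and embryonic troponin T, and Myh2, a fast adult myosin. Called higher were 9.38% of these genes, against 6.53% of all genes. Called lower were 6.25% of them, against 12.1% of all genes. The remaining 27 were not called. The same 5 genes were those whose tumor and oviduct values did not overlap. Such separation was seen upward in 10.8% and downward in 16.8% of all genes. Myog, Chrna1 and Myh2 had 0 to 2 reads in the group where they were low. They reached the table's minimum of 10 reads only through the other group, and their separation follows in part from that. The median change was 0.44 over the 32 genes and -0.048 over all genes, and 22 of the 32 had a change above 0. Under quantile normalization, which moved the median of all genes by 0.126 to 0.078, 5 of the 32 were called higher and 1 lower, with Tnnt1 and Tnnc1 added and Myh2 lost. All genes then split into 1696 higher and 1943 lower, against 1269 and 2356 without it.

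By assigned stage, 2 embryonic genes were called higher (Myog and Chrna1) and 1 lower (Tnnt2), with a median change of 0.17. Of the mature genes, 1 was called higher (Tnni1) and 1 lower (Myh2), with a median of 0.46. The assignment was a choice: of the endplate subunits, Chrna1 was put with the embryonic and Chrnb1 with the mature genes. Such genes can serve at both stages, and other assignments were not tested. The levels were spread unevenly over the tumors. Tumor 2 held the highest value of all 9 libraries for 21 of the 32 genes, or 65.6%, while it held the highest value for 10.5% of all genes. Myf5, Myh3 and Myh1 are among the 21, with 10, 366 and 12 reads in all, most of them in tumor 2. Each gene of the table had at least 10 reads, and these genes reached that only through tumor 2. Without tumor 2 the median change of the 32 genes was -0.07, with 13 of 32 above 0.

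**Figure D1:**
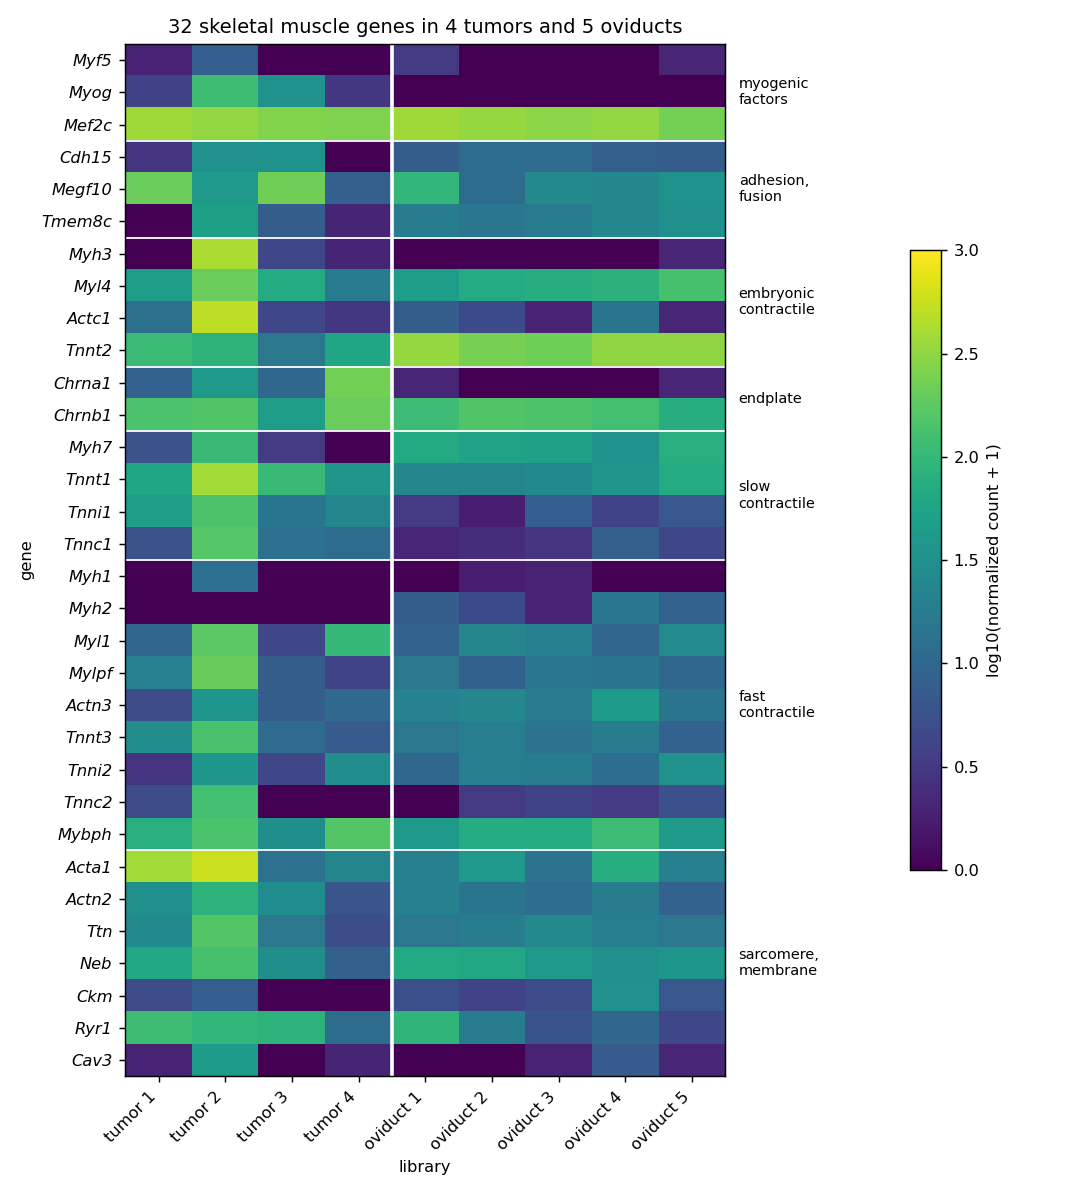
Normalized counts of the 32 genes (rows, ordered by role) in the 4 tumors and 5 oviducts (columns), colored as log10(normalized count + 1). Tumor 2 is the brightest column for 21 of the 32 genes, while Tnnt2 is brighter in every oviduct than in any tumor.

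The promoters of the 3 genes called higher and of Myh3, which of the 32 genes had the highest ratio of tumor 2 to the next library, are shown from 250 bases before to 50 bases after the annotated start. Sequences are from RefSeq on GRCm38.p6, each in the gene's own direction, and for Tnni1 the first of its listed starts is used. Capitals mark every E box, searched as CANNTG, which reads the same pattern on both strands. Basic helix-loop-helix factors such as myogenin bind E boxes.
Myog, chr1:134289754-134290053, plus strand: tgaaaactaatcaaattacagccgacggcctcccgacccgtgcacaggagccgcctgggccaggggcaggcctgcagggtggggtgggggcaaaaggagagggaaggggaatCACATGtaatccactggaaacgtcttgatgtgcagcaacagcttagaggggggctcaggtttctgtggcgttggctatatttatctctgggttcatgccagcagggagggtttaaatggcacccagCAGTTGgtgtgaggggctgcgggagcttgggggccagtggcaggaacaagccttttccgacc
Chrna1, chr2:73580289-73580588, minus strand: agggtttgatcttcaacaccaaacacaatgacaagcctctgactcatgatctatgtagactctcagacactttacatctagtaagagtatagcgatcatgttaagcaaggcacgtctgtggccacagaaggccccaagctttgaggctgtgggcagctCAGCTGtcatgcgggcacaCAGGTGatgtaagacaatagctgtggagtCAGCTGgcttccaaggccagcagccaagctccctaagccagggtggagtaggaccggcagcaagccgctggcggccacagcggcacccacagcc
Tnni1, chr1:135799171-135799470, plus strand: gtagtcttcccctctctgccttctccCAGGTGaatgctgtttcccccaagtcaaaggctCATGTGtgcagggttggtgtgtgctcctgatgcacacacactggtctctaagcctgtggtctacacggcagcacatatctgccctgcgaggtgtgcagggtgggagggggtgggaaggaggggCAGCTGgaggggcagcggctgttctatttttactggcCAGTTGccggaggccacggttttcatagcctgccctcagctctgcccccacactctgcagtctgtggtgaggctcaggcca
Myh3, chr11:67078050-67078349, plus strand: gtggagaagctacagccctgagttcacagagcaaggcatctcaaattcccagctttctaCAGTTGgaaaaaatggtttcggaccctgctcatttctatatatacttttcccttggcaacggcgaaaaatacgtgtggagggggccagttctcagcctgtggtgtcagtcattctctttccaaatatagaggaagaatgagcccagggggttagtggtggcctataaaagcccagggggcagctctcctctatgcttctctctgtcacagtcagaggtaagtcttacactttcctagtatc
The Myog window held 2 E boxes, Chrna1 3, Tnni1 4 and Myh3 1. The nearest to the start site began at -12 in Myog, -44 in Chrna1, -31 in Tnni1 and -191 in Myh3. Of the 32 genes 26 were matched, with 31 windows, and 25 windows (80.6%) held CANNTG, as did 72.3% of 32851 windows of all genes. The narrower form CAGCTG, contained in CANNTG, was found in 10 of the 31 windows (32.3%) and in 16.3% of all windows. The 9 genes with it were Acta1, Cav3, Chrna1, Ckm, Mybph, Myl1, Mylpf, Tnni1 and Tnnt2. These are matches of letters and not shown binding sites.

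Among the myogenic factors, Myog (chromosome 1, 134289989 to 134292548 on GRCm38) encodes myogenin, which drives terminal differentiation of myoblasts. It had 2.91, 116, 33.8 and 2.10 normalized counts in tumors 1 to 4, against 0 in each of the 5 oviducts. Every tumor had reads and no oviduct did, with tumors 2 and 3 well above tumors 1 and 4. A floor of 3 counts is 2.91 normalized counts in tumor 1 and 3.15 in tumor 4, so both lay at or below it. For them the lack of overlap rests on few reads. The change was 1.84 ± 0.54 on the deposited scale (adjusted p = 0.0265 by limma). Against the floor of 3 counts in an oviduct library, the tumor mean was at least 11.5-fold higher, and at least 3.86-fold higher without tumor 2. The call depended on single libraries: without tumor 3, or without any 1 of the 5 oviducts, the adjusted p was 0.0514 to 0.0589. Without tumor 2 the change was 1.23 (adjusted p = 0.0322).

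Myf5, an early myogenic factor, was near the floor throughout. It had 7 reads in the tumors and 3 in the oviducts, and its highest value was 6.81 normalized counts in tumor 2. Mef2c, a partner of the myogenic factors that is also used in heart, endothelium and neurons, had 377, 323, 268 and 259 in tumors 1 to 4, against 374, 332, 301, 323 and 232 in oviducts 1 to 5. The ranges overlapped almost fully, with a change of -0.02 ± 0.18 (adjusted p = 0.932 by limma).

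The genes of myoblast adhesion and fusion were not called. Tmem8c (now Mymk) encodes myomaker, the membrane protein needed for myoblast fusion. It had 0, 50, 6.76 and 1.05 normalized counts in tumors 1 to 4, against 17.9, 14.2, 15.9, 22.8 and 31.3 in oviducts 1 to 5. Tumor 2 stood above all oviducts and the other tumors below them. The change was -0.77 ± 0.47 (adjusted p = 0.245 by limma) with 4 tumors and -1.31 (adjusted p = 0.0108) without tumor 2. Megf10, a receptor of satellite cells that also occurs on glia, had 213, 40.9, 221 and 7.36 in tumors 1 to 4, against 97.1, 10.5, 24.9, 23.6 and 33.5 in oviducts 1 to 5. Tumors 1 and 3 were its highest libraries and tumor 4 its lowest. Without tumor 4 it was called higher. Cdh15, the M-cadherin of myoblasts, was at 0 to 33.8 in tumors, highest in tumors 2 and 3, and at 6.70 to 10.9 in oviducts.

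Chrna1 (chromosome 2, minus strand) encodes the alpha subunit of the muscle acetylcholine receptor. It had 7.77, 39.7, 9.01 and 231 normalized counts in tumors 1 to 4, against 1.12, 0, 0, 0 and 1.12 in oviducts 1 to 5. The lowest tumor was above the highest oviduct, and here tumor 4, not tumor 2, was highest. The change was 2.19 ± 0.60 (adjusted p = 0.0188 by limma), and 1.46 (adjusted p = 0.00609) without tumor 4. The tumors held 271 reads and the oviducts 2, a ratio of 195 after size factors (95% interval 53.5 to 1621, counting error only). Most of these tumor reads came from tumor 4. Chrnb1, the beta subunit, had 141, 151, 47.3 and 205 in tumors 1 to 4, against 114, 150.5, 144, 124 and 72.6 in oviducts 1 to 5, with overlapping ranges and a change of 0.05 ± 0.35 (adjusted p = 0.934). In tumor 4, where both subunit genes were highest, Chrna1 reached 52.8 and Chrnb1 81.0 normalized counts per kb of all annotated exons. Before division by length their order was the reverse, at 231 and 205. Chrnb1 was at 28.7 to 59.5 per kb in oviducts, in which Chrna1 was at 0 to 0.255.

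**Figure D2:**
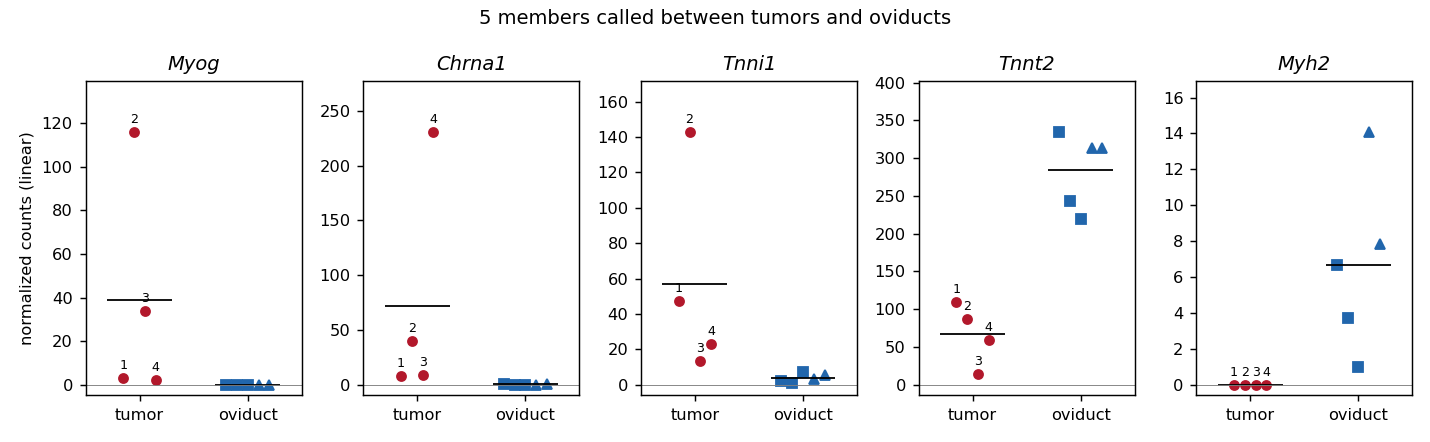
Normalized counts (linear axes) of the 5 called genes in tumors (circles, numbered 1 to 4) and oviducts (squares Dicer1+/D1693N, triangles Dicer1+/+), with the group mean as a line. The tumor points of Myog and Tnni1 are highest in tumor 2 and those of Chrna1 in tumor 4, and the groups do not overlap for any of the 5 genes.

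Of the embryonic contractile genes, Myh3, the embryonic myosin heavy chain, was almost confined to 1 library. It had 0, 409.9, 3.38 and 1.05 normalized counts in tumors 1 to 4, against 0, 0, 0, 0 and 1.12 in oviducts 1 to 5. Tumor 2 held 121 times the next highest library, and each of the other 8 libraries held at most 3 reads. With 4 tumors the change was 1.55 ± 0.91 (adjusted p = 0.224 by limma), and without tumor 2 it was 0.32. Actc1, the cardiac actin that fetal skeletal muscle also uses, had 11.7, 502, 3.38 and 2.10 in tumors 1 to 4, against 6.70, 3.74, 0.995, 13.4 and 1.12 in oviducts 1 to 5. Tumor 2 was 37.6 times the next library and the other tumors lay within the oviduct range.

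Myl4, the embryonic and atrial light chain, had 45.6, 207, 69.8 and 16.8 in tumors 1 to 4, against 46.9, 69.6, 72.6, 83.3 and 134 in oviducts 1 to 5. Tumor 2 was highest, 1.54 times oviduct 5, and the groups overlapped. Tnnt2 went the other way. It had 109, 87.4, 14.6 and 58.9 in tumors 1 to 4, against 335, 243, 219, 314 and 313 in oviducts 1 to 5. Every tumor, tumor 2 included, lay below every oviduct. Tnnt2 averaged 67.4 ± 40.7 in tumors and 285 ± 50.5 in oviducts (SD, n = 4 and 5), a change of -1.97 ± 0.37 (adjusted p = 0.00256 by limma), and its call held in each of the 18 alternatives run.

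All 4 slow contractile genes were highest in tumor 2. Tnni1, the slow troponin I, was also higher across the group. It had 47.6, 143, 13.5 and 23.1 normalized counts in tumors 1 to 4, against 2.23, 0.749, 6.97, 3.14 and 5.58 in oviducts 1 to 5. The lowest tumor was above the highest oviduct. The change was 1.73 ± 0.43 (adjusted p = 0.0127 by limma), and 1.26 (adjusted p = 0.0144) without tumor 2.

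Tnnc1, the slow and cardiac troponin C, had 4.86, 162, 11.3 and 10.5 in tumors 1 to 4, against 1.12, 1.5, 1.99, 7.07 and 3.35 in oviducts 1 to 5. Tumor 2 was 14.4 times the next library and tumor 1 lay within the oviduct range. Tnnt1, the slow troponin T, had 58.3, 378, 108 and 35.8, against 23.4, 22.5, 25.9, 36.2 and 69.2. Tumors 2 and 3 were above all oviducts. The changes of Tnnc1 and Tnnt1 were 1.25 ± 0.56 (adjusted p = 0.115) and 1.23 ± 0.52 (adjusted p = 0.0999), neither called. Myh7, the slow and cardiac myosin heavy chain, had 4.86, 108, 2.25 and 0 in tumors 1 to 4, against 68.1, 52.4, 51.7, 33.8 and 75.9 in oviducts 1 to 5. Tumor 2 lay above all oviducts and the other tumors below them, so that the change of -1.5 ± 0.61 (adjusted p = 0.0875) became -2.26 (adjusted p = 7.28e-04 by limma) without tumor 2.

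Among the 9 mature fast contractile genes only Myh2 was called. Myh2, the IIa myosin, had no read in any tumor, against 6.70, 3.74, 0.995, 14.1 and 7.82 normalized counts in oviducts 1 to 5. All its 37 reads came from oviducts, so it was in the table only through them. The change was -1.03 ± 0.23 (adjusted p = 0.00751 by limma), and against the floor of 3 counts the tumor level was at least 1.96-fold lower. Without oviduct 4 or oviduct 5 the change was -0.90 or -0.99, under the minimum of 1. Myh1, the IIx myosin, had 11.4 in tumor 2 and 0 in the other tumors, against 0 to 0.995 in oviducts.

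The fast light chains Mylpf and Myl1 and the fast troponins Tnnc2 and Tnnt3 were low in oviducts and high in tumor 2. Mylpf, the fast regulatory light chain, had 20.4, 202, 6.76 and 3.15 in tumors 1 to 4, against 14.5, 7.49, 13.9, 13.4 and 8.93 in oviducts 1 to 5. Myl1, the fast essential light chain, had 8.74, 170.3, 3.38 and 99.9, against 7.81, 22.5, 18.9, 8.65 and 26.8. Tumor 2 was above all oviducts for both, and tumor 4 as well for Myl1.

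Tnnc2, the fast troponin C, had 3.88, 124, 0 and 0 in tumors 1 to 4, against 0, 2.25, 2.99, 2.36 and 4.47 in oviducts 1 to 5. Tumor 2 was 27.7 times the next library. Tnnc2 shares 592 of its 800 exonic bases with the mitotic gene Ube2c on the opposite strand, and whether counting used strand is not stated. Ube2c was at 414, 511, 290.5 and 359.7 in tumors 1 to 4, against 10 to 44.7 in oviducts. In tumors 3 and 4 Ube2c was thus above all oviducts and Tnnc2 had no read. The part of Ube2c reads in the Tnnc2 count of tumor 2 was not tested. Tnnt3, the fast troponin T, had 28.2, 135, 10.1 and 6.31 in tumors 1 to 4, against 14.5, 18.0, 12.9, 17.3 and 7.82 in oviducts 1 to 5, with tumors 1 and 2 above all oviducts.

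Mybph, a myosin-binding protein, had 74.8, 139, 30.4 and 155 in tumors 1 to 4, against 40.2, 71.1, 68.7, 112 and 40.2 in oviducts 1 to 5. Tumors 2 and 4 were above all oviducts. It shares 1162 of its 2329 exonic bases with Adora1 on the opposite strand. Adora1 was at 243, 211, 61.9 and 431 in tumors 1 to 4, against 169 to 364 in oviducts, and, as for Mybph, was lowest in tumor 3 and highest in tumor 4. The part of Adora1 reads in Mybph was not tested. Tnni2, the fast troponin I, was at 1.94 to 36.3 in tumors and 8.93 to 33.5 in oviducts. Actn3, the fast-fiber alpha-actinin, was at 3.88 to 36.3 in tumors and 13.4 to 43.2 in oviducts. Neither was called.

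None of the 7 genes of the thin filament, sarcomere scaffold and membrane system was called, and 5 of them were highest in tumor 2. Acta1, the skeletal alpha-actin, had 381, 581, 12.4 and 22.1 normalized counts in tumors 1 to 4, against 19.0, 39.7, 12.9, 73.1 and 19.0 in oviducts 1 to 5. Tumors 1 and 2 were above all oviducts and tumors 3 and 4 within or below their range. The change was 1.47 ± 0.87 (adjusted p = 0.224 by limma). Its coding sequence is close to that of the smooth muscle actin Acta2, so reads may be split between them. Acta2 was at 31269.6 in tumor 1 and 7958 in tumor 2, against 8588 to 17544 in oviducts. The level of Acta2 in tumor 2 was below every oviduct, while that in tumor 1 was above them.

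The giant sarcomere proteins titin and nebulin set filament spacing and length. Ttn had 26.2, 156, 14.6 and 4.21 in tumors 1 to 4, against 14.5, 17.2, 24.9, 18.1 and 14.5 in oviducts 1 to 5. Neb had 61.2, 133, 30.4 and 7.36, against 68.1, 62.1, 38.8, 31.4 and 36.8. Tumor 2 was above and tumor 4 below all oviducts for both genes, and tumor 3 was just below them for Neb. Actn2, the alpha-actinin of the Z disc, had 31.1, 85.2, 28.1 and 5.26 in tumors 1 to 4, against 19.0, 13.5, 10.9, 17.3 and 7.82 in oviducts 1 to 5. Tumors 1 to 3 were above all oviducts and tumor 4 below them, and Actn2 was called higher without tumor 4.

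Ryr1, the calcium release channel of the sarcoplasmic reticulum, had 117, 95.4, 85.6 and 10.5 in tumors 1 to 4, against 91.5, 17.2, 4.98, 8.65 and 3.35 in oviducts 1 to 5. Tumors 1 to 3 were high, and so was oviduct 1. Its change of 1.32 ± 0.61 (adjusted p = 0.125 by limma) passed the threshold without tumor 4 and without oviduct 1. Cav3, the muscle caveolin, was at 43.2 in tumor 2, at most 1.05 in the other tumors and at most 6.29 in oviducts. Ckm, the muscle creatine kinase of mature fibers, was at 0 to 6.81 in tumors, against 32.2 in oviduct 4 and 2.99 to 5.58 in the other oviducts.

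Tumor 2 was set apart from the other tumors over most of the program. In it 18 of the 32 genes reached 100 normalized counts, against 3 to 6 in each of the other 8 libraries. The median difference from the oviduct mean was 0.23, 1.51, -0.21 and -0.25 on the deposited log2 scale in tumors 1 to 4. The 11 genes highest elsewhere were Mef2c and Ryr1 (tumor 1), Cdh15 and Megf10 (tumor 3), Chrna1, Chrnb1 and Mybph (tumor 4), Tnnt2 (oviduct 1), and Myh2, Actn3 and Ckm (oviduct 4). Both stages were high in tumor 2: the embryonic genes averaged 6.91 on the deposited log2 scale, against 4.99 to 5.47 in the other tumors and 5.05 to 5.37 in oviducts. The mature genes averaged 6.81, against 4.76 to 5.30 in the other tumors and 5.00 to 5.24 in oviducts.

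**Figure D3:**
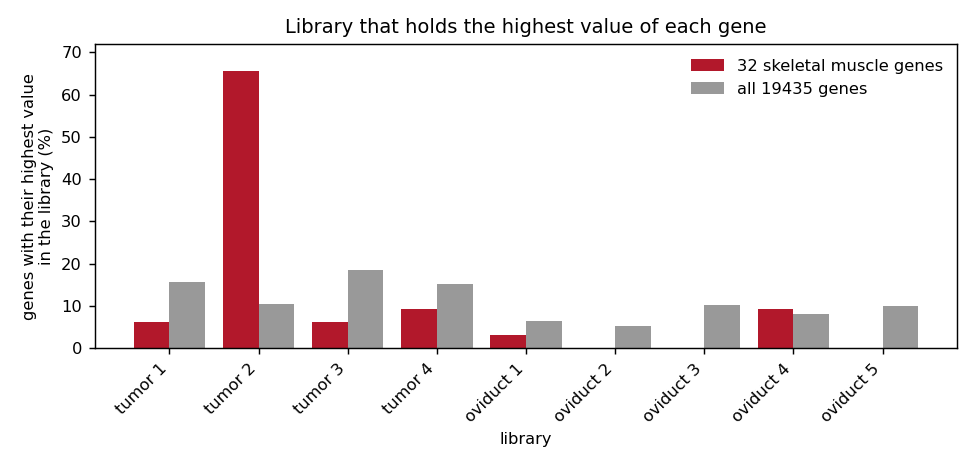
Share of genes (%) with their highest value in each library, for the 32 skeletal muscle genes (red) and for all 19435 genes (grey). Tumor 2 holds 65.6% of the 32 genes but 10.5% of all genes. Myf5, Myh3 and Myh1, counted for tumor 2, were in the table only through it.

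Leaving out tumor 2 left Myog, Chrna1 and Tnni1 called higher and Tnnt2 and Myh2 called lower, and added Tmem8c and Myh7 as lower, 7 calls in all. Leaving out tumor 4 gave 9 calls, with Megf10, Tnnt1, Actn2 and Ryr1 added as higher. The values with and without tumor 2 are plotted for each gene.

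**Figure D4:**
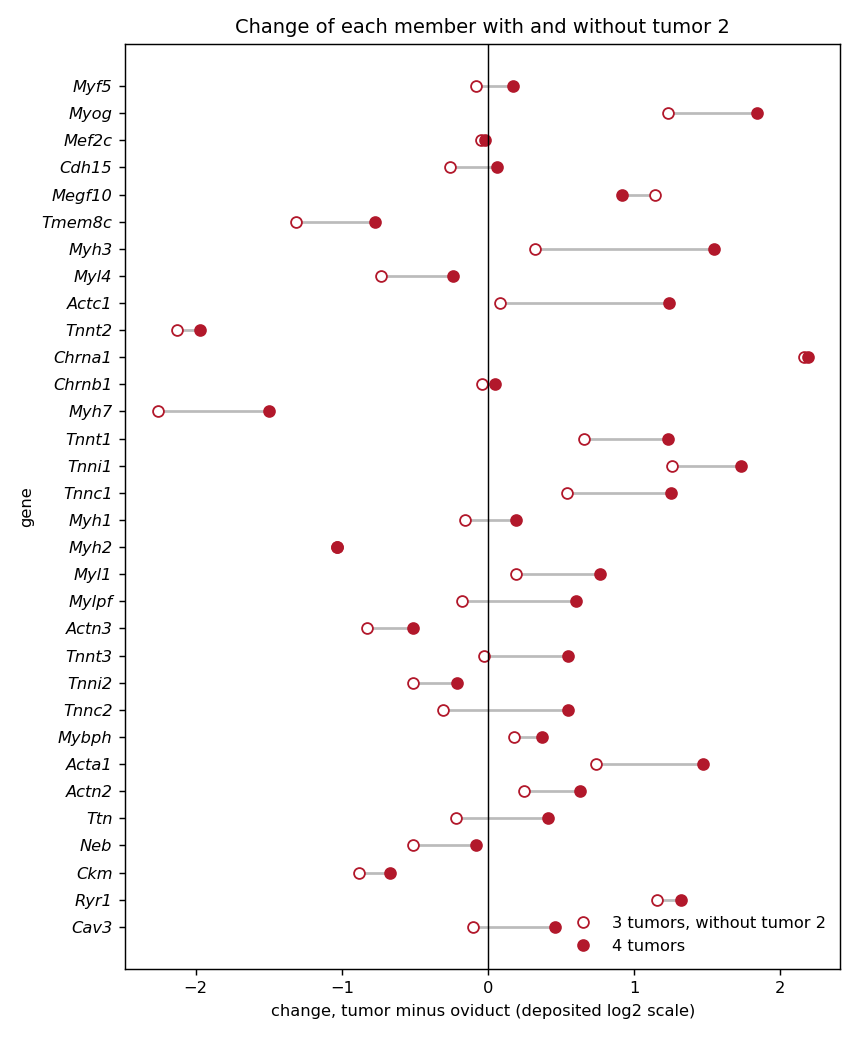
Change of each of the 32 genes, tumor minus oviduct on the deposited log2 scale, with all 4 tumors (filled) and without tumor 2 (open). Myh3 lies at 1.55 with 4 tumors and 0.32 without tumor 2, and Actc1 at 1.24 and 0.08. Chrna1, which is highest in tumor 4, stays at 2.19 and 2.16.

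Within protein families, levels were compared per kb of exon, using the exon lengths of GENCODE M21. The length covers all annotated exons of a gene, which can exceed that of the transcript present. In tumor 2 the embryonic Myh3 was at 67.7 normalized counts per kb, the slow Myh7 at 12.5 and the fast Myh1 at 1.79, so Myh3 was 5.41 times Myh7 and 37.9 times Myh1. In oviducts Myh7 had the highest mean of the 3, 6.54 per kb, with Myh1 at 0.0549 and Myh3 at 0.0369. The slow and fast troponin C genes were level in tumor 2, Tnnc1 at 156 and Tnnc2 at 155 per kb. Slow troponin exceeded fast troponin for the I forms (Tnni1 39.7, Tnni2 24.3 per kb) and for the T forms (Tnnt1 172, Tnnt3 85.4). In oviducts the fast Tnni2 was the higher I form, with a mean of 11.9 per kb, and Tnni1 had 1.04. The actins Actc1 and Acta1 were at 310.2 and 379 per kb in tumor 2, against oviduct means of 3.20 and 21.3. The light chains Myl4 and Myl1 were at 44.6 and 82.1 in tumor 2, against 17.5 and 8.16 in oviducts. Before division by length their order in tumor 2 was the reverse, with Myl4 at 207 and Myl1 at 170.3 normalized counts. These are descriptions of 1 tumor library and have no replicate.

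**Figure D5:**
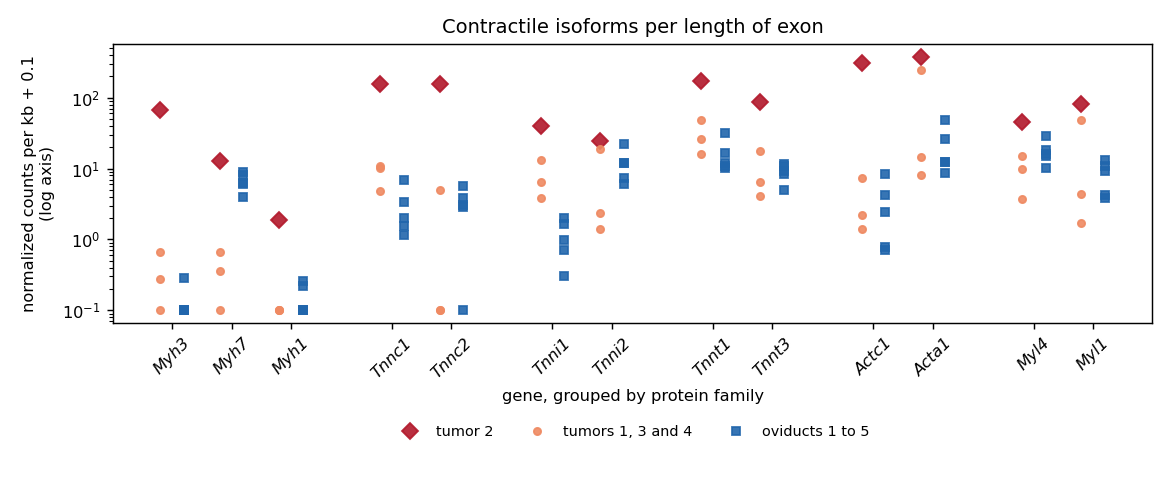
Normalized counts per kb of exon plus 0.1 (log axis) for contractile isoforms, grouped by family: tumor 2 (diamonds), the other tumors (circles) and oviducts (squares). In tumor 2 Myh3 is above Myh7 and Myh1, whereas in every oviduct Myh7 is above Myh3.

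Genes were ranked by the ratio of tumor 2 to the next highest library, among 13060 genes with at least 50 normalized counts in tumor 2. Myh3 ranked 3, Actc1 8 and Tnnc2 15. The 10 genes outside the muscle set with the highest ratios were Ighv9-4 (174), Igkv12-98 (142), Igkv9-120 (50.8), Gm364 (50.5), Mov10l1 (45.3), A230065H16Rik (39.7), Kap (35.6), Igkv3-7 (32.7), Ighv5-12 (32.2) and Igkv14-130 (30.5). Among them 6 are immunoglobulin variable segments. The ranking uses only the ratio of tumor 2 to the next library and is no likeness of levels over the others. Kap, for instance, had 169 and 251 in tumors 1 and 3, where Myh3 had 0 and 3.38. Tumor 2 was taken because Myh3 is highest there.

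Other cell types that use some of these genes were measured beside them. The summed level of 12 smooth muscle markers was 72029, 23242, 3626 and 12924 in tumors 1 to 4, against 36496 to 78029.6 in oviducts, and 6 of the 12 were called lower. In tumor 2 this sum was below every oviduct, while 21 skeletal muscle genes were highest there. Of 12 cardiac markers 9 were measured, with sums of 151, 165, 272 and 27.3 in tumors, against 427 to 758 in oviducts, and 2 of the 9 (Tnni3 and Ryr2) were called lower. Tnnt2, called lower, is also a cardiac gene. The atrial genes Nppa and Myl7 were at most 5.68 and 4.54 in tumors and at most 7.07 and 10 in oviducts. Other genes of the cardiac list were well above 0. Tnni3 was at 14.7 to 62.2 in tumors and 126 to 193 in oviducts, Ryr2 at 1.05 to 85.6 in tumors and 193 to 316 in oviducts, and the factor Gata4 at 2.10 to 98.0 in tumors and 40.8 to 313 in oviducts.

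The proliferation genes summed to 3175 to 5715 in tumors and 205 to 467 in oviducts, with 6 of 6 called higher and tumor 2 at 3464. Endothelial markers, which matter for Mef2c, summed to 4742 to 9250.1 in tumors and 2065 to 3659 in oviducts, with 4 of 6 called higher. Nerve and Schwann cell markers summed to 156 to 606 in tumors, with tumor 2 lowest, and 182 to 339 in oviducts. In that list 2 of 8 were called higher and 3 lower. Macrophage markers, of which 5 of 6 were measured and 4 called higher, summed to 13689, 22785, 4947 and 37793 in tumors 1 to 4, against 2505 to 4355 in oviducts. Fat cell markers summed to 88.4, 146, 39.4 and 34437 in tumors 1 to 4, against 1220.1 to 10756 in oviducts, with none of 6 called. Tumor 4, which held the highest Chrna1, also had the highest macrophage and fat cell marker sums of the 9 libraries. Their part in its Chrna1 level was not tested.

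The genes above and around the program were taken from further lists. Of 43 upstream regulators and fusion genes 38 were measured, 11 called higher and 3 lower in tumors, with a median change of 0.35. Those higher included the precursor factors Six2, Eya1 and Eya4. Six2 had 646, 265, 243 and 0 normalized counts in tumors 1 to 4, against 0 in every oviduct, and Eya1 had 324, 98.8, 753 and 4.21, against 1.12 to 5.58. Tumors 1 to 3 were above all oviducts for both and tumor 4 was not. Eya4 had 275, 137, 749.8 and 21 normalized counts in tumors 1 to 4, against 1.12 to 8.96 in oviducts (3.20 ± 0.69, adjusted p = 0.00566 by limma). It was above every oviduct in every tumor and highest in tumors 1 and 3, not in tumor 2. The Id genes, whose proteins bind the partners of the myogenic factors and block differentiation, were all higher, with changes of 1.94 ± 0.29 for Id1, 1.22 ± 0.30 for Id2 and 2.17 ± 0.23 for Id3 (adjusted p 6.01e-04, 0.0105 and 7.15e-05 by limma). Id1, Id2 and Id3 were each highest in tumor 2. Id2 overlapped between the groups, at 1043 in tumor 4 and 1143 in oviduct 4.

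Also higher were Fgfr4, a receptor of muscle precursors (1.60 ± 0.33), the growth factor Igf2 (3.58 ± 0.82), Tcf21 (2.51 ± 0.66) and Tcf15 (1.05 ± 0.29). Fgfr4 had 23.3, 56.8, 21.4 and 8.41 in tumors 1 to 4, against 0 to 4.49 in oviducts, and was highest in tumor 2. Igf2 and Tcf15 overlapped between the groups. Igf2 was at 218 in tumor 4 and 265 in oviduct 1. Tcf15 was at 10.2 in tumor 2 and 12.0 in oviduct 2. Lower were the adhesion genes Jam2 (-1.75 ± 0.44) and Jam3 (-2.40 ± 0.38) and the RNA-binding gene Rbm24 (-1.91 ± 0.54). Tumor 2 held the highest value for 6 of these 38 genes, or 15.8%. Among them was Smyd1, a muscle methyltransferase, at 4.86, 85.2, 11.3 and 9.46 in tumors 1 to 4, against 4.46 to 21 in oviducts.

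Of 72 other genes of the sarcomere, triad, endplate and muscle metabolism, 62 were measured, 1 was called higher and 8 lower, with a median change of -0.09. The gene called higher was Musk, the endplate receptor kinase, with 43.7, 14.8, 24.8 and 4.21 in tumors 1 to 4, against 0 to 6.70 in oviducts (1.18 ± 0.35, adjusted p = 0.0261 by limma). The values overlapped through tumor 4. Those lower were Trdn, Mybpc2 (-1.74 ± 0.36), Myom1 (-1.70 ± 0.42), Myh14 (-1.49 ± 0.46), Dmd (-1.47 ± 0.33), Unc45b (-1.44 ± 0.31), Xirp1 (-1.24 ± 0.33) and Klhl31 (-1.22 ± 0.39). Trdn, the triadin of the calcium release complex, had 27.2, 3.41, 0 and 3.15 in tumors 1 to 4, against 154 to 244 in oviducts, the largest fall of this list (-3.34 ± 0.38, adjusted p = 9.83e-05). Dmd is also used by smooth muscle. It had 353, 134, 119 and 368 in tumors 1 to 4, beside smooth muscle marker sums that were below every oviduct in tumors 2 to 4 and within the oviduct range in tumor 1. The part of smooth muscle in these falls was not tested. Of the 8 genes called lower, Myh14 and Klhl31 overlapped between the groups. Tumor 2 was highest for 19 of the 62 (30.6%). Of 13 satellite cell genes 12 were measured, with Vcam1 (2.22 ± 0.37) and Cxcr4 (1.15 ± 0.28) higher and Tenm4 (-1.65 ± 0.32) lower in tumors. None of these 3 is particular to muscle precursors. The Cxcr4 values overlapped between the groups.

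Between the oviduct genotypes none of the 32 genes was called by limma in a model of all 9 libraries, while 4 of 19435 genes were, or 0.0206%. At an unadjusted p under 0.05 the count was 0 of the 32 genes and 534 of all genes, and limma-voom on the recovered reads also called 0 of the 32. The differences, Dicer1+/D1693N minus Dicer1+/+, were -0.79 (Ckm) to 1.00 (Ryr1), with a median of -0.13. Ryr1 averaged 37.9 normalized counts in the 3 Dicer1+/D1693N oviducts and 6.0 in the 2 Dicer1+/+ oviducts, with 91.5 in oviduct 1 and 17.2 and 4.98 in the other Dicer1+/D1693N oviducts. Ckm averaged 3.81 in Dicer1+/D1693N and 18.9 in Dicer1+/+ oviducts, of which oviduct 4 alone was high.

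Without stated strand, exonic bases of 10 of the 32 genes also belong to another annotated gene, so their reads may be shared. Besides Tnnc2 and Mybph these were Myh7, Myh1, Myh2, Ckm, Ryr1, Ttn, Neb and Myl4, each with a noncoding or predicted transcript.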

How the data were processed

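Poly-A RNA was purified from miRNeasy extracts and primed with random hexamers, per the labels' protocols. The submitters' processing notes name FastQC 0.11.5, STAR 2.5.3a, HTSeq and GRCm38 (mm10), and the transformation, annotation and strand setting are not given in the sources used here. The authors deposited log2 values for 19435 genes and 9 libraries with a common floor of 3.427. Undoing a variance-stabilizing transformation gave whole reads over a size factor for 100% of values (tolerance 0.05 reads), and each gene had at least 10 reads. A change on this scale understates that of genes with few reads. limma 3.58.1 (R 4.3.3, trend in the prior variance, two-sided) was fitted to the deposited log2 values of 4 tumors and 5 oviducts, and in a 3-group model for the oviduct genotypes, with Benjamini-Hochberg adjustment over all genes, and was tested on simulated data. Genes were called at an adjusted p under 0.05 and a change of at least 1.

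The 40 symbols and the other lists were chosen with earlier results of these data known. Values are given in full for called genes, for genes with at least 50 normalized counts in a tumor and for genes without a read in 1 group. Other genes named are those called in the lists, cell type markers, and the 10 genes most like Myh3. Smyd1 was singled out after its value was seen, as were Ovgp1 and Foxj1 as tissue markers. Epcam and Pax8 were measured beside them. A floor of 3 counts is at most 3.41 normalized counts in a tumor and 3.35 in an oviduct. Floors and intervals cover counting error only. Alternatives were other scales, normalization, filters, thresholds, a voom fit, each library left out, a replicate block and each oviduct genotype alone.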

Additional observations from a re-analysis of the deposited data

Results flagged for a closer look

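Of 52 groups of tumors or oviducts tested for a library far from the others (the gap to the nearest value set against the range, on the deposited log2 scale), 6 had one. Each group tested had at least 10 normalized counts in some library. The rule flags about 1 in 20 groups of normal, independent values, and the share over all genes was not computed. Tumor 2 stood above the other tumors for 4 genes: Myh3 at 409.9 normalized counts, Actc1 at 502, Tnnc1 at 162 and Myh1 at 11.4. Myh1 had 12 reads in all, 10 of them in the tumors and all of these in tumor 2, so it entered the table and the comparison only through tumor 2 and its separation follows from that. Myh3 likewise entered the table only through tumor 2. Both are counted in the 6, and 4 of the 6 come from tumor 2, so that count cannot be set plainly against 1 in 20. Ryr1 was far lower in tumor 4, at 10.5, than in the other tumors, and tumor 4 was also the tumor with the highest fat cell marker sum, 34437, against 39.4 to 146 in the other tumors. Ckm was far higher in oviduct 4, at 32.2, than in the other oviducts, at 2.99 to 5.58. It reached the minimum of 10 in oviducts only through oviduct 4, and it too is counted in the 6.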

How the results depend on the processing

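The number of skeletal muscle genes called between tumors and oviducts was 5. It was 3 on a log2(normalized count + 8) scale, 2 with the replicate block, 2 with the Dicer1+/D1693N oviducts alone as controls and 2 with the Dicer1+/+ oviducts alone. Leaving out 1 library at a time gave 3 to 9. With no minimum change the count over all genes was 6051 in place of 3625, and the 5 were the same genes. The median change was -0.07 to 0.62 over the libraries left out, below 0 only without tumor 2. The call of Tnnt2 was kept in all 18 alternatives. That of Chrna1 and of Tnni1 was lost in 2 each, with adjusted p up to 0.109 and 0.0945. That of Myog was lost in 10, with adjusted p of 0.0514 to 0.127, and that of Myh2 in 6 of 17. No change turned its direction for these 5 genes. Between oviduct genotypes 4 genes of the table were called, 0 on a log2(normalized count + 1) scale, 2 by voom, 0 with the oviducts fitted alone and 0 to 4 with 1 library left out. The cause of these shifts was not tested. Labels give tumors and oviducts shared numbers. Deviations of same-numbered libraries correlated at 0.117, 0.061, -0.089 and 0.006, and those of differently numbered ones at -0.146 to 0.139. These values do not single out the shared numbers and cannot tell whether the libraries are paired. With the replicate block, Chrna1 and Tnnt2 were the 2 genes called. Depth limits Myf5, Myh1 and Myh2 most, with 10, 12 and 37 reads in all.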
